A study of Mus musculus with 6 samples.

Results

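The genes described here are 45 genes of the type I interferon response and of nucleic acid sensing, among 46078 genes listed in the count table of *Hnrnpa2b1* KO and WT C2C12 cells. They were chosen by name: sensors of RNA and DNA, the adaptor and kinase below them, interferon regulatory factors, the interferon receptor with its transcription complex, antiviral effectors, ubiquitin ligases and PARP proteins, and the genes of class I antigen presentation. All 45 names were found in the table. Of these, 35 held 10 or more counts in at least 3 of the 6 libraries, and the same 35 passed edgeR's filter on low counts and were tested.

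C2C12 is an immortalized mouse myoblast line from C3H mice whose cells fuse into myotubes once serum is withdrawn. The KO group carried the genotype hnrnpa2b1 KO, made with CRISPR/Cas9 and a guide RNA under puromycin selection, and the WT group held control cells of the same line that kept the gene. The paper's Western blot legend names control myoblasts treated with a guide of scrambled sequence. Whether the WT libraries came from such cells is not given in the sources used here. C2C12 cells had been transfected with a plasmid carrying Cas9 and the guide before clones were isolated, and no virus, nucleic acid or interferon is named as a treatment at the time of differentiation. Both groups were differentiated for 2 days by serum withdrawal with an insulin, transferrin and selenium supplement, although the general culture methods name a differentiation medium with horse serum. Ribosomal RNA was depleted from total RNA and 3 libraries per genotype were sequenced (KO1, KO2, KO3 and WT1, WT2, WT3), and values of single libraries are given in that order. Independent KO and WT clones were isolated, but the clone behind each library is not given in the sources used here, so each p-value measures the spread between these libraries, which may be clonal or technical.

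A cell that finds RNA or DNA in its cytosol switches on interferon through a relay. The sensors *Ddx58* (RIG-I) and *Ifih1* (MDA5) bind viral RNA, and *Mb21d1* (cGAS) binds DNA and signals through *Tmem173* (STING). The kinase *Tbk1* then activates *Irf3*, secreted interferon binds the receptor chains *Ifnar1* and *Ifnar2*, and the complex ISGF3, which holds STAT2 and IRF9, turns on the interferon-stimulated genes. Hnrnpa2b1, an RNA-binding protein, has also been described as a sensor of DNA in the nucleus that feeds into this relay.

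Libraries held 33605258 to 40558740 reads counted on genes. The paper checked the knockout of its clones at the protein level, by immunofluorescence and Western blot, which RNA counts do not measure. At the RNA level the targeted gene did not separate the genotypes. Its CPM (reads relative to the library total, with TMM scaling) were 159 to 249 in KO and 225 to 252 in WT, with a log2 fold change of KO over WT of −0.23 (standard error, SE, 0.18; adjusted p = 0.381). Here and below, adjusted p-values come from edgeR's quasi-likelihood test, run two-sided and adjusted by Benjamini-Hochberg over all 14828 genes tested, and a gene was called when its adjusted p was under 0.05. TPM are a level corrected for transcript length, and those of 12 muscle markers summed to 9132, 4230 and 4203 in KO and 7897, 6449 and 7171 in WT, so KO1 lay above and KO2 and KO3 below the WT libraries. In KO *Myf5* was lower and *Cdh15* and *Myod1* higher, and without KO1 7 of the 12 were lower and 2 higher. Of 10 leukocyte markers, 4 held at most 3 counts in every library, and 3 of these 4 were at 0 in every library. The summed level was 1.36 to 2.25 TPM in KO against 1.05 to 1.40 in WT, with *Lyz2* higher in KO. *Lyz2* held 22 to 23 reads in KO and 0 to 6 in WT, so it met the filter on low counts through the KO libraries alone. The 5 fibroblast markers summed to 72.1 to 139 TPM in KO and 26.5 to 33.2 in WT, without overlap. Most of that sum was *Ly6a* and *Cd34*, which were higher in KO, as was *Pdgfra*, while *Col15a1* had 15.9 CPM in KO and 26.0 in WT and *Dcn* was high in KO1 alone, neither past the threshold. Endothelial and epithelial markers summed to at most 0.319 and 1.85 TPM in any library, with *Kdr* 4.44-fold lower and *Krt14* 7.37-fold higher in KO. Of these 9 marker calls, 8 were lost without at least 1 library (adjusted p of up to 0.130), and that of *Ly6a* was kept. With the median of the genes in its 10 Mb stretch removed, the log2 fold change of *Myf5* went from −1.50 to −0.72 (adjusted p = 0.212). The part of these marker differences in the results on interferon genes was not tested, and fewer cells of a type cannot be told apart from less RNA per cell in bulk libraries.

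KO cells did not show a shared rise or fall of the interferon genes. In KO, 4 members were higher (*Zbp1*, *Eif2ak2*, *Gbp2* and *Parp9*), 3 were lower (*Ifih1*, *Ifnar2* and *Bst2*), and 28 of the 35 tested did not pass the threshold. Of the 4, *Zbp1* met the filter on low counts through its KO libraries alone, where it was high. The called share was 20% of the members tested, against 22.7% of all genes tested in either direction, 12.1% called higher and 10.6% called lower. At an unadjusted p under 0.05 the count was 11 of 35 members, against 5781 of 14828 genes. The median log2 fold change was 0.05 over the members and 0.03 over all genes tested, with 19 members above 0 and 16 below. Every KO library lay above every WT library for 11 members and below for 5, shares to be read against 22.7% and 21.6% of all genes tested. The changes that were called ran from a 9.10-fold lower level of *Ifih1* (without KO2, a log2 fold change of −4.25 in place of −3.19) to a 4.47-fold higher level of *Zbp1*. After *Zbp1*, the next largest called rise was 2.47-fold, in *Parp9*. The plot of called members shows each library.

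**Figure D1:**
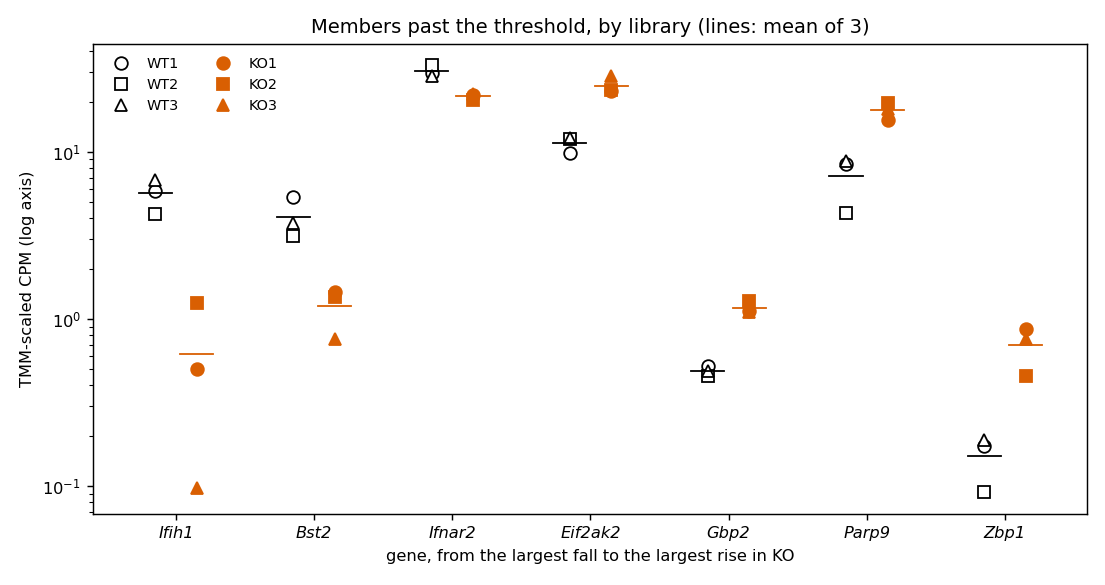
TMM-scaled CPM (log axis) of the 7 members past the threshold, with open symbols for the WT libraries, filled symbols for the KO libraries and a line at each mean of 3. For each gene the KO libraries lie wholly on one side of the WT libraries, with the widest spread in *Ifih1*, from 0.0976 in KO3 to 1.24 in KO2.

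Of the RNA sensors tested, *Ifih1* was lower in KO and *Ddx58* was not called, and whether their changes differ was not tested. *Ifih1* (ENSMUSG00000026896, chromosome 2, 62595798 to 62646255), which senses long double-stranded RNA, had CPM of 0.504, 1.24 and 0.0976 in KO and 5.84, 4.27 and 6.82 in WT. These are 18, 54 and 4 reads in KO against 202, 140 and 253 in WT, so each KO library was low, KO3 close to no reads, and the genotypes did not overlap. On the log2 scale the change was −3.19 (SE 0.70, adjusted p = 0.0175), and the call was lost without WT1 (adjusted p = 0.0678) or WT3 (0.0630). Without KO2 the value was −4.25. *Ddx58* (ENSMUSG00000040296), which senses short RNA with a triphosphate end, had a mean of 14.4 ± 3.39 CPM (SD, n = 3) in KO and 14.4 ± 1.84 in WT and a log2 fold change of 0.00 (SE 0.21, adjusted p = 0.998), a value whose sign changed in 12 of the 16 alternatives. *Dhx58* (LGP2), the regulator of both sensors, held 7 to 17 reads per library and was not tested.

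Of the members that sense DNA or nucleic acids in the Z form, *Zbp1* was called higher in KO and *Mb21d1* was not called. *Zbp1* (ENSMUSG00000027514, chromosome 2, 173206612 to 173218923), whose product binds Z-form nucleic acid and can start necroptosis, had 0.867, 0.458 and 0.757 CPM in KO and 0.174, 0.0914 and 0.189 in WT. This was a low level throughout, 20 to 31 reads in KO and 3 to 7 in WT, with every KO library above every WT library. Only the KO libraries held 10 or more reads, so *Zbp1* entered the test through the group where it was high. Its log2 fold change was 2.16 (SE 0.47, adjusted p = 0.0178). The call was lost whichever WT library was left out (adjusted p = 0.0628 to 0.0794), and in TPM with no filter (limma, 0.110), where the log2 fold change was 0.34. That value for *Zbp1* is on log2(TPM + 1), where the added 1 shrinks changes at so low a level. The genes of its 10 Mb stretch had, against all genes, a median of 0.37 on the log2 scale, and with that median removed *Zbp1* kept a log2 fold change of 1.80 (adjusted p = 0.0349).

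*Mb21d1* (cGAS, ENSMUSG00000032344) makes the cyclic dinucleotide that activates STING. It had 4.09, 5.02 and 4.47 CPM in KO and 5.26, 5.67 and 5.36 in WT. The KO libraries lay just below the WT libraries, and the log2 fold change of −0.26 (SE 0.20, adjusted p = 0.365) did not pass the threshold.

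*Tmem173* (STING, ENSMUSG00000024349) had 4.81, 1.74 and 1.93 CPM in KO and 1.33, 1.37 and 1.24 in WT. All KO libraries were above the WT libraries, but KO1 stood far above KO2 and KO3. It had a log2 fold change of 1.10 (SE 0.43, adjusted p = 0.102) and became 0.48 without KO1 (adjusted p = 0.285). It passed the threshold in 1 of 14 alternatives, with no filter on low counts (adjusted p = 0.0465).

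*Tbk1* (ENSMUSG00000020115), the kinase that STING and the RNA sensors share, had 51.9, 43.6 and 45.3 CPM in KO and 41.4, 38.3 and 37.8 in WT. The ranges did not overlap, yet the difference was small, with a log2 fold change of 0.26 (SE 0.12, adjusted p = 0.159). Its substrate *Irf3* (ENSMUSG00000003184) had 39.8, 42.6 and 40.7 CPM in KO and 33.4, 30 and 43.3 in WT, overlapping through WT3, with a log2 fold change of 0.21 (SE 0.16, adjusted p = 0.365).

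*Irf7* (ENSMUSG00000025498), which amplifies interferon output and is itself induced by interferon, had 1.06, 1.10 and 1.05 CPM in KO and 0.781, 0.457 and 0.755 in WT. The KO libraries were nearly equal and all above the WT libraries, but at a log2 fold change of 0.68 (SE 0.34) the adjusted p was 0.181. *Irf1*, a factor used by interferon gamma, had 34.6 ± 6.35 CPM (SD, n = 3) in KO and 36.3 ± 4.36 in WT, with a log2 fold change of −0.07 (adjusted p = 0.797).

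Of the receptor chains, *Ifnar2* was lower in KO and *Ifnar1* did not pass the threshold. *Ifnar2* (ENSMUSG00000022971, chromosome 16, 91372783 to 91405589), the chain that binds interferon with high affinity, had 21.9, 20.5 and 22.2 CPM in KO and 29.6, 32.9 and 28.3 in WT. The KO libraries were tight and wholly below the WT libraries. The log2 fold change was −0.49 (SE 0.13, adjusted p = 0.0313), a modest fall that kept its direction but passed the threshold in only 8 of 16 alternatives, and lost it without KO2, KO3, WT1, WT2 or WT3 (adjusted p = 0.0620 to 0.105). The gene makes transmembrane and soluble receptor forms from the same locus, which counts per gene do not separate. Its span shares 13869 bases with the predicted gene *Gm21970* on the same strand, which held 0 reads in every library.

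*Ifnar1* (ENSMUSG00000022967, chromosome 16, 91485238 to 91507441), the partner chain on the same stretch of the chromosome, had 54.7, 71.9 and 65.0 CPM in KO and 61.8, 66.4 and 56.2 in WT. The genotypes overlapped, and the log2 fold change was 0.05 (SE 0.14, adjusted p = 0.796). Whether the changes of *Ifnar1* and *Ifnar2* differ was not tested.

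Within ISGF3, *Stat2* (ENSMUSG00000040033) had 28.5, 18.2 and 18.9 CPM in KO and 30.1, 20 and 25.5 in WT, a log2 fold change of −0.21 (SE 0.23, adjusted p = 0.538) inside overlapping ranges. *Irf9* (ENSMUSG00000002325), the DNA-binding subunit, had 5.37, 6.25 and 6.71 CPM in KO and 2.86, 3.75 and 4.23 in WT. Every KO library was above every WT library, and the log2 fold change of 0.76 (SE 0.23, adjusted p = 0.0526) missed the threshold narrowly. *Irf9* passed it in DESeq2 (adjusted p = 0.0249) and without KO1 (0.0365), 2 of its 16 alternatives.

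**Figure D2:**
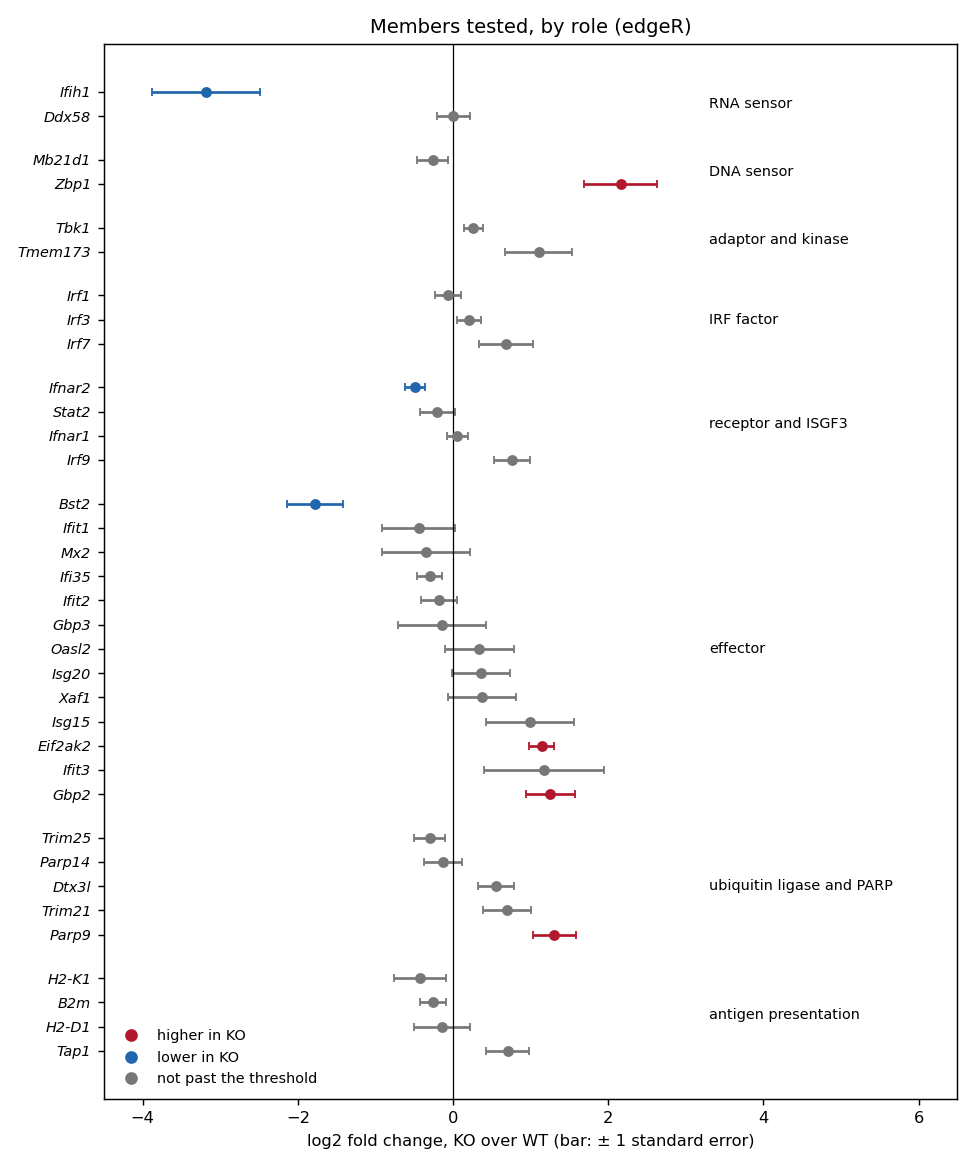
Log2 fold change of KO over WT for each of the 35 members tested, grouped by role, with bars of 1 SE. Called members lie on both sides of 0 in red and blue, and the other 28 points in grey lie between −0.44 and 1.17.

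Among the antiviral effectors, the largest group, 13 of 20 members were tested, with 2 higher in KO, 1 lower and a median log2 fold change of 0.34. *Eif2ak2* (PKR, ENSMUSG00000024079, chromosome 17, 78852564 to 78882573), the kinase that stops translation when it binds double-stranded RNA, had 23.1, 23.4 and 28.4 CPM in KO and 9.89, 12.0 and 12.0 in WT. The KO libraries lay well above the WT libraries, a 2.20-fold difference. The log2 fold change was 1.14 (SE 0.16, adjusted p = 0.00433), the smallest adjusted p of the members, and the call held in 15 of 16 alternatives, the exception being TPM with no filter on low values (limma, adjusted p = 0.0678). The median of its 10 Mb stretch was 0.30 above that of all genes, and with it removed *Eif2ak2* had a log2 fold change of 0.84 (adjusted p = 0.0123).

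*Gbp2* (ENSMUSG00000028270, chromosome 3, 142620602 to 142638008) encodes a GTPase that attacks the vacuoles of intracellular pathogens. It had 1.12, 1.28 and 1.10 CPM in KO and 0.521, 0.457 and 0.485 in WT, tight groups without overlap. On the log2 scale it rose by 1.25 (SE 0.32, adjusted p = 0.0278). The call held in 7 of 14 alternatives and was lost without KO2, KO3 or any WT library (adjusted p = 0.0523 to 0.109). Its neighbour *Gbp3*, of the same family, had a log2 fold change of −0.14 (adjusted p = 0.873) at 0.122 to 0.539 CPM. The value of *Gbp3* was −0.52 without WT2 and 0.51 without WT3.

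*Bst2* (tetherin, ENSMUSG00000046718, chromosome 8, 71534264 to 71537437), which holds budding virions to the cell surface, moved the other way. It had 1.46, 1.35 and 0.757 CPM in KO and 5.38, 3.14 and 3.75 in WT, and the highest KO library was below the lowest WT library. Its log2 fold change was −1.78 (SE 0.36, adjusted p = 0.0132), a 3.44-fold lower level. It held in 14 of 16 alternatives and was lost without WT1 (adjusted p = 0.0689) and in TPM with no filter (limma, 0.0537).

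*Isg15* (ENSMUSG00000035692), a ubiquitin-like modifier that interferon strongly induces, had 0.672, 0.824 and 0.220 CPM in KO and 0.376, 0.183 and 0.296 in WT. KO1 and KO2 were above the WT libraries and KO3 was within their range, with a log2 fold change of 0.99 (SE 0.57, adjusted p = 0.232). The *Ifit* genes, whose products bind foreign RNA, gave log2 fold changes of −0.44 for *Ifit1*, −0.18 for *Ifit2* and 1.17 for *Ifit3*, with adjusted p of 0.522, 0.6 and 0.299. The value of *Ifit3* came from KO2, with 1.37 CPM where the other libraries had 0.189 to 0.318, and without KO2 it was −0.27. The remaining effectors tested, *Ifi35*, *Isg20*, *Oasl2*, *Mx2* and *Xaf1*, had log2 fold changes of −0.35 to 0.37 and none passed the threshold. The lowest of these, *Mx2*, was −0.96 without KO1 and −0.11 without KO3.

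Several of the classic interferon-stimulated genes were barely read. *Oas1a*, of the oligoadenylate synthetases that activate RNase L, held 0 reads in every library, and 3 reads would be 0.0687 to 0.0914 CPM. *Oas2* held 0 or 1 read, *Rsad2* (viperin) 0 to 2, *Oasl1* 0 to 4, *Usp18* 0 to 4, *Mx1* 0 to 12 and *Ifi44* 2 to 13. No difference could be read in these genes at this depth.

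Among the ubiquitin ligases and PARP proteins, all 5 were tested and *Parp9* was called. *Parp9* (ENSMUSG00000022906, chromosome 16, 35938470 to 35972605), which works with DTX3L to modify histones and to raise interferon signalling, had 15.4, 19.5 and 18.2 CPM in KO and 8.47, 4.30 and 8.76 in WT. All KO libraries were high and WT2 was the lowest. Its log2 fold change was 1.30 (SE 0.28, adjusted p = 0.0161), and the call was lost without WT1 (adjusted p = 0.0539) and in TPM with no filter (limma, 0.0575).

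*Dtx3l*, its partner on the opposite strand with 682 bases in common, had 25.5, 24.4 and 30 CPM in KO and 22.1, 12.2 and 20.2 in WT. WT2 was again lowest and the ranges did not overlap, with a log2 fold change of 0.55 (SE 0.23, adjusted p = 0.116). Whether the counting used strand is not given in the sources used here, so counts from the shared bases are uncertain. *Parp14*, on the other side of *Dtx3l*, had a log2 fold change of −0.13 (adjusted p = 0.716). *Trim21*, a cytosolic receptor for antibody-coated virus, and *Trim25*, a ligase that acts on RIG-I, had log2 fold changes of 0.70 (adjusted p = 0.138) and −0.30 (0.290).

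In class I antigen presentation none of the 4 members tested was called, and their median log2 fold change was −0.20. *B2m* (ENSMUSG00000060802, chromosome 2, 122147686 to 122153083), the light chain of every class I molecule, had 399, 302 and 304 CPM in KO and 385, 429 and 388 in WT. KO1 lay within the WT range and KO2 and KO3 below it, with a log2 fold change of −0.26 (SE 0.16, adjusted p = 0.273). The heavy chain *H2-K1* (ENSMUSG00000061232, chromosome 17, 33996017 to 34000333) had 105, 49.1 and 42.1 CPM in KO and 81.8, 106 and 76.4 in WT. Here too KO1 stood with the WT libraries while KO2 and KO3 were below all of them. The log2 fold change was −0.43 (SE 0.33, adjusted p = 0.376), and without KO1 it was −0.95 (adjusted p = 0.00600). *H2-D1* was likewise high in KO1 alone among the KO libraries, with 44.4, 18.4 and 20.1 CPM in KO and 25.3, 40.9 and 25.3 in WT (log2 fold change −0.14, adjusted p = 0.796). The class I alleles of C3H mice differ from those of the reference strain, and class I genes resemble each other, so counts of *H2-K1* and *H2-D1* are uncertain.

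*Tap1*, a subunit of the peptide transporter, had 3.58, 5.52 and 4.08 CPM in KO and 2.26, 3.32 and 2.53 in WT. The libraries did not overlap, and the log2 fold change was 0.70 (SE 0.28, adjusted p = 0.104). The immunoproteasome subunits beside it did not pass the filter on low counts, with 4 to 17 reads in KO and 1 to 4 in WT for *Psmb8* and 4 to 11 against 2 to 4 for *Psmb9*. In TPM with no filter *Psmb8* was called higher (limma, log2 fold change 0.30, adjusted p = 0.0286), and with no filter on counts it was not (edgeR, adjusted p = 0.220). The 0.30 is on log2(TPM + 1), where the added 1 shrinks changes at means of 0.260 TPM in KO and 0.0255 in WT.

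The promoters of some members are shown because members that rose, fell or did not pass the threshold carry the same letters. The ISRE core, the element that ISGF3 binds, was searched as GAAANNGAAA and, for the other strand, as TTTCNNTTTC, with overlapping matches counted, in windows from 250 bases before to 50 bases after each start (RefSeq, GRCm38.p6). It was found in 14 of 43 promoters of the 36 members that the table holds, and in 1131 of 32851 promoters overall (3.44%). Of the called members, 5 are in the table and 4 carry the core: *Ifih1* and *Bst2*, which fell, and *Eif2ak2* and *Gbp2*, which rose. Of the members tested and not called, 25 are in the table and 8 carry it, with log2 fold changes of −0.44 to 1.17. The lines below give 30 bases each, read 5′ to 3′ on the gene's strand, with the matches in capitals: the 4 called members first, then *Isg15*, with 3 overlapping matches, *Ifit1*, with matches in 2 places, and *B2m*, the member with the highest level.
Ifih1 (fell; chr2:62646206-62646235, minus strand): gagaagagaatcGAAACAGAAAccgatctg
Bst2 (fell; chr8:71537580-71537609, minus strand): attccagGAAAATGAAACTGAAAggctgca
Eif2ak2 (rose; chr17:78882535-78882564, minus strand): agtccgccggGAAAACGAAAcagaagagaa
Gbp2 (rose; chr3:142620594-142620623, plus strand): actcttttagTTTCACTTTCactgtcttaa
Isg15 (not called; chr4:156200871-156200900, minus strand): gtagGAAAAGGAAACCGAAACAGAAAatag
Ifit1 (not called; chr19:34640784-34640813, plus strand): gTTTCACTTTCcagtctcagTTTCAGTTTC
B2m (not called; chr2:122147538-122147567, plus strand): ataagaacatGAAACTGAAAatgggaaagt

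The match begins 124 and 130 bases before the start in *Bst2*, 59 before it in *Gbp2*, and 19 and 33 bases after it in *Eif2ak2* and *Ifih1*. The GAS core, the element that interferon gamma signalling uses, was searched as TTCNNNGAA, which reads alike on both strands, and was found in 10 of the 43 member promoters and in 2726 of all promoters (8.30%). *Ifnar2* carried a GAS core 214 bases before its start and no ISRE core in its window. In *Bst2* a GAS core overlaps the ISRE core. A match says only that these letters occur in the window.

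Levels per length differed widely between members. Mean TPM over all libraries was at least 1 in 20 of the 45 members and under 1 in 25. *B2m* stood first, with 258 ± 30.9 TPM (SD, n = 3) in KO and 310 ± 32.3 in WT. *H2-K1* followed with 25.3 ± 11.2 and 35.9 ± 8.66 TPM, and *Ifnar2* with 20.4 ± 2.96 and 34.0 ± 5.75. Within each genotype the levels of *H2-K1* overlapped those of *Ifnar2*, so their order is uncertain, while *Ifnar2* itself was lower in KO. Then came *Irf3* (19.8 ± 2.95 and 16.0 ± 2.19 TPM) and *Irf1* (14.0 ± 2.82 and 15.8 ± 3.70), whose levels overlapped with each other as well. The called members other than *Ifnar2* were low. *Eif2ak2* had 4.20 ± 1.05 TPM in KO and 1.89 ± 0.186 in WT, *Bst2* had 1.01 ± 0.283 and 3.51 ± 1.02, and *Zbp1*, at 0.390 ± 0.179 and 0.0892 ± 0.0278, was the lowest in WT.

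**Figure D3:**
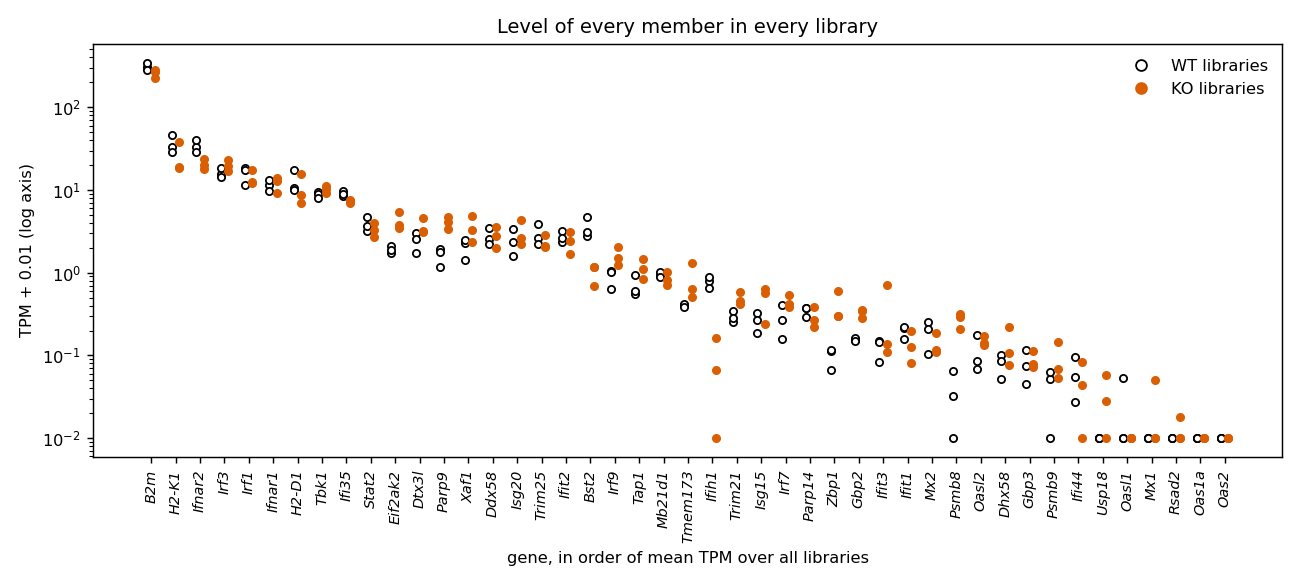
TPM of all 45 members in each library, with 0.01 added so that 0 can be drawn on the log axis, in order of the mean over all libraries (open points WT, filled points KO). *B2m* lies far above the rest, and the right end holds members with 0 TPM in nearly every library.

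Library by library, the members did not move together. The median difference of the 35 tested members from the WT mean, on the log2 CPM scale, reached 0.27 for KO1, 0.17 for KO2 and −0.07 for KO3. The WT libraries lay near 0, where the centring on their own mean holds them, and are no measure of the spread. KO1 stood apart in *Tmem173*, *H2-K1* and *H2-D1*, KO2 in *Ifit3*, and KO3 in *Ifih1* and *Bst2*.

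**Figure D4:**
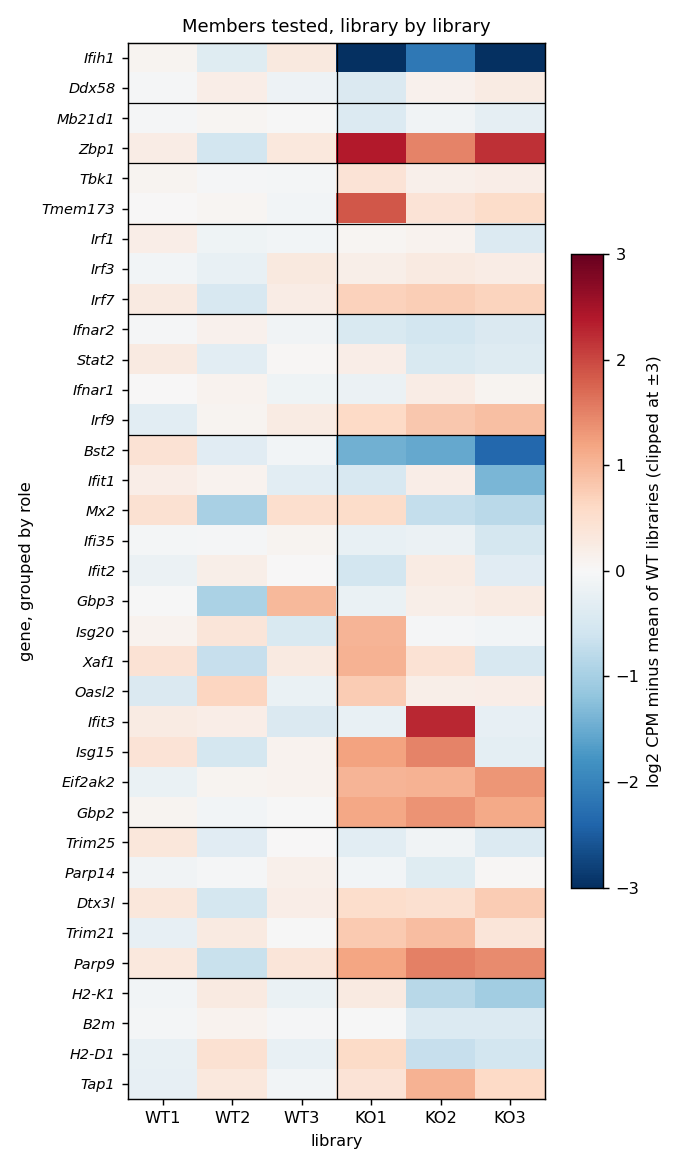
Difference of log2 CPM from the mean of the WT libraries for the 35 members tested (red above, blue below, colours clipped at ±3), with genes in rows grouped by role and libraries in columns. All KO cells lie more than 1 from the WT mean, in the same direction, for *Ifih1*, *Bst2*, *Zbp1*, *Eif2ak2*, *Gbp2* and *Parp9*, and other rows hold such cells in some libraries, such as *Tmem173* in KO1, *Ifit3* in KO2 and *Isg15* in both.

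A list of 64 other genes of the pathway gave the surroundings of the members. Of these, 52 were tested, 10 were higher in KO and 7 were lower, or 32.7%, against 22.7% of all genes tested, with a median log2 fold change of 0.22. The interferon genes themselves were at or near 0: *Ifnb1* and *Ifna4* held 0 reads in every library, and are named here after their values were seen. For the receptor of interferon gamma, *Ifngr2*, on chromosome 16 near *Ifnar1*, was lower in KO, with 42.0, 37.9 and 32.5 CPM against 86.7, 50.9 and 77.8 (log2 fold change −0.94, SE 0.21, adjusted p = 0.0186). The kinase *Tyk2*, which sits on IFNAR1, was lower as well, with 17.9, 19.6 and 15.7 CPM in KO and 37.5, 27.2 and 33.6 in WT (−0.89, SE 0.17, adjusted p = 0.0107). Both genes had every KO library below every WT library. Without WT1 both calls were lost (adjusted p = 0.0826 and 0.0580), and that of *Ifngr2* also without KO3 (0.0610) or WT3 (0.0678).

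The sensors outside the list of members also went both ways. *Aim2*, which senses DNA in the inflammasome, held 10, 0 and 1 reads in KO and 39, 455 and 80 in WT (log2 fold change −5.87, SE 1.35, adjusted p = 0.0209), most of them in WT2. It met the filter on low counts through its WT libraries, where it was high. The call was lost without WT2 (adjusted p = 0.0509) or KO3 (0.0706), and the log2 fold change ran from −8.56 without KO1 to −4.07 without WT2. *Ifi204*, of the interferon-inducible DNA-binding family next to it, had 38.5, 44.8 and 50.4 CPM in KO and 15.2, 22.7 and 16.9 in WT, a log2 fold change of 1.29 (SE 0.19, adjusted p = 0.00505). Its family holds close copies, so its counts are uncertain. Among subunits of RNase H2, which removes RNA from DNA, *Rnaseh2a* had a log2 fold change of 0.55 (adjusted p = 0.0432) and *Rnaseh2c* of −1.07 (0.0477). The first call was lost without any library but KO3 (adjusted p of up to 0.144) and the second without KO1, KO3, WT1 or WT3 (up to 0.160). The median of the 10 Mb around *Rnaseh2a* was 0.58 above that of all genes, and with it removed the value was −0.03. *Rnaseh2a* shares 181 bases with *Prdx2* and *Rnaseh2c* 423 with *Kat5*, both on the opposite strand and more deeply read, so their counts are uncertain. *Prdx2* held 30349 to 54120 reads in KO and 14051 to 17750 in WT.

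The GTPases *Igtp* and *Irgm2*, which interferon gamma induces, were much lower in KO. *Igtp* had 3.89, 2.68 and 1.15 CPM in KO and 26.9, 29.6 and 36.8 in WT, a 12.1-fold lower level (log2 fold change −3.60, SE 0.40, adjusted p = 0.00218). *Irgm2* had 1.01, 1.33 and 0.854 CPM against 4.14, 5.15 and 4.15 (−2.07, SE 0.28, adjusted p = 0.00397). Both kept their calls in every alternative. They overlap on the same strand, so their counts are uncertain. *Samd9l*, a restriction factor, was lower too, with 9.09, 0.870 and 3.42 CPM in KO and 14.5, 25.3 and 26.5 in WT (−2.32, adjusted p = 0.0476), a call lost without KO3 or any WT library (adjusted p of up to 0.135) and a value of −3.38 without KO1.

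Of the genes of peptide loading on this list, *Tap2* and *Tapbp* were called. *Tap2*, the other transporter subunit, had 23.4, 36.0 and 23.9 CPM in KO and 6.48, 8.93 and 7.60 in WT (log2 fold change 1.86, SE 0.22, adjusted p = 0.00262), a call that held in every alternative. *Tapbp* (tapasin), which ties the transporter to class I molecules, had 72.4, 82.1 and 65.2 CPM against 41.0, 32.0 and 47.3 (0.87, SE 0.17, adjusted p = 0.0123), a call lost without WT1 (0.0622). *Tapbp* shares 3421 of its 13390 bases with *Zbtb22* on the same strand, which held 1195 to 1764 reads in KO and 934 to 1137 in WT, so its counts are uncertain. The largest rise in the list was that of *Lgals9* (galectin-9), with 7.55, 25.1 and 19.2 CPM in KO and 0.318, 1.19 and 0.620 in WT (4.61, SE 0.59, adjusted p = 0.00312).

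*Ifi27*, an interferon-stimulated gene of the mitochondrion, had 33.6, 44.3 and 36.3 CPM in KO and 16.9, 20.3 and 20.2 in WT (log2 fold change 0.99, adjusted p = 0.00614). The median of its 10 Mb was 0.40, and with it removed the value was 0.59 (adjusted p = 0.0359). *Socs3*, a feedback inhibitor of cytokine signalling, had a log2 fold change of 0.77 (adjusted p = 0.0192), a call lost without KO3 or any WT library (up to 0.0901). The signalling genes *Ikbke* and *Traf3* had log2 fold changes of 0.90 and 0.46 with adjusted p of 0.0499 and 0.0451. These calls were lost without KO3 or any WT library and also without KO2 for *Ikbke* and KO1 for *Traf3* (up to 0.184 and 0.168). The other 35 pathway genes tested had log2 fold changes of −1.73 to 1.94 and were not called.

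**Figure D5:**
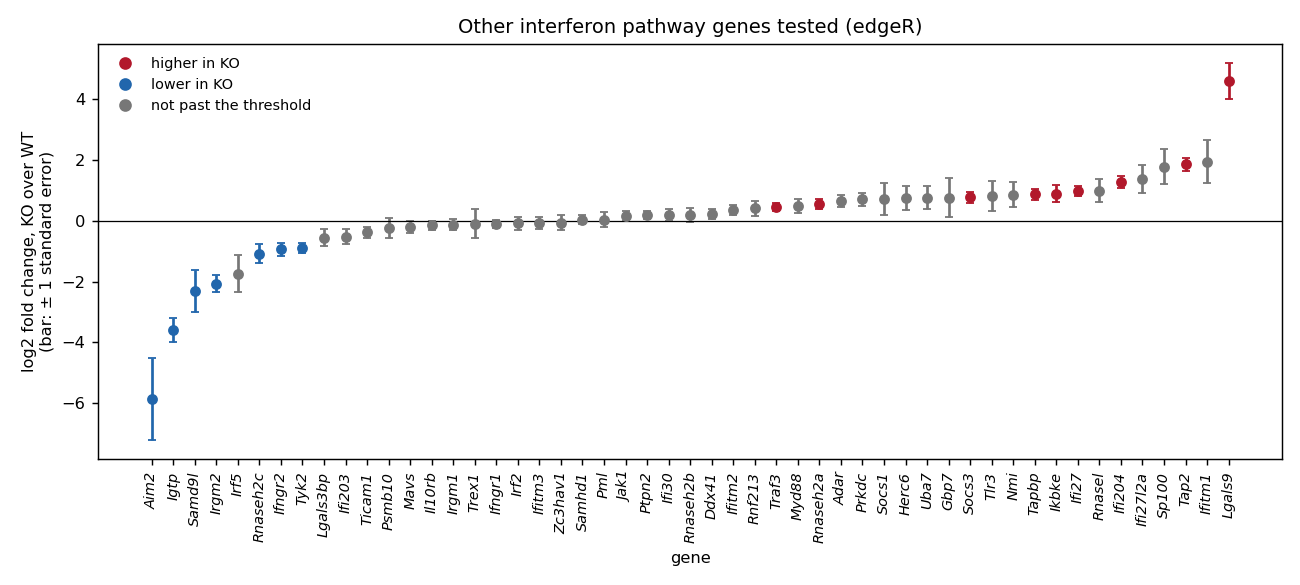
Log2 fold change of KO over WT, with bars of 1 SE, for the other pathway genes tested and reported here, in order of the value. Called genes, in red and blue, run from −5.87 for *Aim2* to 4.61 for *Lgals9*, and grey points not past the threshold lie among them. *Aim2* met the filter on low counts through its WT libraries, where it was high.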

How the data were processed

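RNA of 3 KO and 3 WT libraries of C2C12 cells, differentiated for 2 days, was measured by paired-end sequencing. Raw counts per gene, from STAR alignments and without normalization, were deposited. The authors also deposited StringTie values per library: TPM, which were used for levels and in limma, and FPKM and coverage, which were not used. Per the submitters' processing notes, featureCounts counted the reads, and versions are not given in the sources used here. The methods name the build GRCm39 and the notes mm9, but 83.2% of the 45137 genes matched by ID have the start and end of a GRCm38 annotation, so positions are given on GRCm38. All 6 columns of counts were used.

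Counts were scaled with TMM factors (trimmed mean of M-values), filtered with filterByExpr and tested with edgeR 4.0.16 (R 4.3.3) under a design with genotype alone, with Benjamini-Hochberg adjustment over 14828 genes and a threshold of 0.05. No library repeated another. Steps were tested on simulated data. Single genes of 3 against 3 cannot pass an exact permutation test, whose smallest p is 0.1.

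The members and lists were chosen with earlier results of these data known. Each member past the threshold, *Mb21d1*, *Tmem173*, *Tbk1*, *Irf3*, *Ifnar1*, *Ifnar2*, *Stat2*, *Irf9*, *Irf7*, *Isg15* and the 3 members with the highest mean TPM were described in full, the others by value and count. Of the other pathway genes, those past the threshold were named, except 1 that is counted but not reported here. Other values of members are given where 1 library set them.

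Alternatives, one at a time, were DESeq2 1.42.0, RLE and upper-quartile factors, no filter, the filter of at least 10 counts in at least 3 libraries, the replicate number as a block, each library left out, limma 3.58.1 on log2(TPM + 1) or log2(TPM + 0.1) where a TPM of 1 was reached in 3 or more libraries, log2(TPM + 1) with no filter, and removal of the median log2 fold change of the gene's 10 Mb (at least 15 genes). Low members could not be fitted in TPM, so their alternatives number 14 in place of 16. A promoter match was sought in RefSeq sequences, and 9 members have no entry in that table.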

Additional observations from a re-analysis of the deposited data

How the results depend on the processing

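With each library left out in turn, members called higher in KO numbered 1 to 5, members called lower 0 to 4, other pathway genes called 7 to 19 and all genes called 933 (without WT1) to 4712 (without KO1). In limma, 2 members were called higher with log2(TPM + 1), with log2(TPM + 0.1) and with no filter, and with no filter (where the 2 were *Gbp2* and *Psmb8*) 1 member was called lower, 7 pathway genes and 1075 genes in all. These TPM fits tested 20 members, or 43 with no filter. Of the 7 members called, 7 were shared with DESeq2, RLE or upper-quartile factors and the regional correction, 5 with no filter on low counts, and 1 without WT1, namely *Eif2ak2*. The members' median was −0.083 in limma on log2(TPM + 0.1) and −0.070 on log2(TPM + 1), and −0.024 to 0.13 with each library left out, below 0 without KO1 or KO2. With the regional median removed 12 pathway genes were called. The direction of each called member held in every alternative; 26 values of members that were not called changed sign, and the cause was not tested. For *Ddx58* they were −0.025 (DESeq2), −0.015 (RLE), −0.025 (no filter), −0.00041 (at least 10 counts in 3 libraries), −0.0022 and −0.0070 in limma on log2(TPM + 1) and log2(TPM + 0.1), and −0.0022 with no filter. With each library left out in turn, values ran from −0.13 to 0.17 for *Ddx58*, −0.16 to 0.081 for *Irf1*, −0.035 to 0.15 for *Ifnar1*, −0.27 to 1.58 for *Ifit3*, −0.092 to 0.55 for *Isg20*, −0.52 to 0.51 for *Gbp3*, −0.043 to 0.69 for *Xaf1* and −0.67 to 0.12 for *H2-D1*. With the regional median removed, *Irf1* was 0.20 and *Ifnar1* −0.012, and *Gbp3* was 0.013 in limma with no filter.

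For libraries of equal number, the deviations correlated at r = 0.13, −0.11 and 0.01 for numbers 1 to 3. For those of unequal number r ran from −0.32 to 0.27. With 3 libraries per genotype this check cannot exclude pairing by number. With the replicate block, 3 members were called higher, 2 lower and 2520 genes in all, and *Ddx58* was −0.021. Low counts limit the precision of members such as *Zbp1*, *Gbp3*, *Ifit3* and *Isg15*, and 10 members did not pass the filter.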
